A study of Mus musculus with 12 samples.

Results

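The transcripts of 10 egg calcium channels and calcium effectors were followed in mouse oocytes that lacked Lsm14b. The genes were chosen by name, as rows carrying the symbol Itpr1, Orai1, Stim1, Trpv3, Trpm7, Cacna1h, Camk2g, Calm2, Ppp3ca or Atp2b1. All 10 were among the 22801 genes measured at metaphase II (MII, the mature egg). Of the 10, 3 were among the 3475 genes listed at the germinal vesicle stage (GV, the immature oocyte arrested before maturation). Listing at GV required more than a 2-fold difference together with p below 0.05 before adjustment, so a gene missing from it was not selected there and its GV level is not known here.

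RNA was sequenced from tubes of 15 oocytes from 35-day-old C57BL/6 females, with 3 biological replicates in each of 4 groups. Conditional knockout oocytes (CKO) carried floxed Lsm14b alleles together with Gdf9-Cre, a recombinase made in oocytes from early follicle stages, and were sampled at GV and at MII. Control oocytes (WT) carried the same floxed alleles without Cre, so the controls are not unmodified animals. The alleles are deleted in the oocyte only, and the follicle cells around it keep the gene. Lsm14b encodes an RNA-binding protein of cytoplasmic ribonucleoprotein granules.

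A fertilized mouse egg is activated by repeated rises of cytosolic calcium. Sperm-delivered phospholipase C makes inositol trisphosphate, which opens the receptor encoded by Itpr1 on the endoplasmic reticulum. Entry across the plasma membrane, in mouse eggs chiefly through TRPM7 and the T-type channel made from Cacna1h, refills the store and keeps the oscillations going. TRPV3 and ORAI1 are further calcium-permeable channels, and mouse eggs without Orai1 still oscillate at fertilization. Calmodulin carries the signal to CaMKII gamma, which releases the egg from metaphase arrest, and to the phosphatase calcineurin, while pumps such as the Atp2b1 product return calcium to its resting level.

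Sequences of the genes that the results turn on are given first. Coding bases 304 to 363 of Calm2 and of its paralog Calm3 are shown because both encode calmodulin and the Calm2 value below rests on reads being assigned to the right gene. In GENCODE M21 on GRCm38 these bases lie in a single exon, at chr17:87435134-87435193 for Calm2 and chr7:16917133-16917192 for Calm3, both on the minus strand. Capitals mark the 14 positions at which the pair differs.
Calm2: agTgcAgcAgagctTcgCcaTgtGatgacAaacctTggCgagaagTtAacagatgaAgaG
Calm3: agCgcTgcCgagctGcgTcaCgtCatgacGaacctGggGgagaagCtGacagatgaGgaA
Over all 450 coding bases Calm2 and Calm3 were identical at 82.7% of positions. Of 150 codons 76 differed, and all 76 coded for the same amino acid. The longest stretch without a difference was 17 bases.

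Promoters are shown for the 2 channel genes that were lower at GV. RefSeq windows of 300 bases on GRCm38.p6, from 250 bases before to 50 after the start, matched 5 of the 10 genes (Orai1, Stim1, Trpv3, Trpm7 and Atp2b1). Capitals mark CANNTG, the E-box bound by basic helix-loop-helix factors, which reads the same pattern on both strands. The Orai1 window is chr5:123014824-123015123 and the Trpv3 window is chr11:73267270-73267569, both on the plus strand.
Orai1: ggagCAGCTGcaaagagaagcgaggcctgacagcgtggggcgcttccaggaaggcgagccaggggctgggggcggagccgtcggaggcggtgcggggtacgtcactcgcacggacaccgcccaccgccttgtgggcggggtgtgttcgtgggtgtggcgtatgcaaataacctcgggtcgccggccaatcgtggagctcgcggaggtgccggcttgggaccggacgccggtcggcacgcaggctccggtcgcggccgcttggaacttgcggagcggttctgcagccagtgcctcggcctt
Trpv3: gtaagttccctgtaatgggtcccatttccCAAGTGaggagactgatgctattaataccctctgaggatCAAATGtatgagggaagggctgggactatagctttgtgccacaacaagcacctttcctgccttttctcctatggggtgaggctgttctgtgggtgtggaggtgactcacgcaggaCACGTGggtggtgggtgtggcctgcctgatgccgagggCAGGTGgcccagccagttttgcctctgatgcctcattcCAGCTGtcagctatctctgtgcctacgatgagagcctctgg
The Orai1 window held 1 match and was 70.3% G and C, and the Trpv3 window held 5 matches and was 54.7% G and C. A CANNTG match was present in 72.1% of 27025 promoters of the same length. Neither window held TATAAA or TAATTG on either strand, which 14.2% and 8.15% of all promoters held.

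At the other end of the messages, the last 100 bases of the 3′ untranslated region were searched on the sense strand for TTTTAT and TTTTAAT, the letters of the cytoplasmic polyadenylation element. Such elements are known to govern polyadenylation and translation of stored messages during oocyte maturation. A match stood in 1 of the 10 genes, Atp2b1, against 19.1% of 13335 genes searched. Its window, chr10:99026063-99026092 on the plus strand of GRCm38, carries the match in capitals and starts it 75 bases before the annotated end.
Atp2b1: tgagccTTTTATtatttgtctatttgtaaa
The polyadenylation hexamer AATAAA or ATTAAA stood in the last 50 bases of 8 of the 10 genes, all but Camk2g and Ppp3ca, against 77.9% of genes searched. One annotated transcript stood for each gene, and the ends used in oocytes were not measured.

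The libraries were checked before the members were compared. Lsm14b averaged 908 ± 80.9 normalized counts in CKO and 11051 ± 524 in WT at MII (SD, n = 3 each), and 1436 ± 164 in CKO and 22931 ± 6257 in WT at GV (SD, n = 3 each). All 16 oocyte markers had reads in every group at MII, but many differed by genotype. With no overlap 7 were higher in CKO and 2 lower, against 10.4% and 12% of all tested genes. At an unadjusted p under 0.05 limma marked 6 higher and 2 lower, against 16% of all genes. It called 1, higher in CKO, and the median log2 difference of the 16 was 0.55. The 1 oocyte marker listed at GV was called higher in CKO in the authors' deposited table. Of 25 cumulus and granulosa markers 18 had a row at MII. These summed to 6266 to 8668 normalized counts in CKO and 4593 to 9340 in WT, mostly from Cdh2, Nr5a2 and Cyp19a1. Of the 16 cumulus and granulosa markers tested, 4 were higher in CKO with no overlap and 0 lower, against 10.4% and 12% of all tested genes. The median log2 difference of these 16 was 0.54, and limma called 0 (3 at an unadjusted p under 0.05, all higher, against 16% of all genes). The 4 higher without overlap were Nr5a2, Fshr, Ptgs2 and Inhba. Fshr had 157, 96.2 and 90.9 normalized counts in CKO and 34.2, 4.79 and 0 in WT. Amh, Has2 and Hsd17b1 were at 0 in every CKO library and in at least 1 WT library. The theca, stroma and endothelium markers summed to 3948 to 4655 in CKO and 3760 to 4715 in WT at MII, mostly from Pecam1. The median of the 5 tested was -1.61, and 2 were lower in CKO with no overlap and 0 higher, against 12% and 10.4% of all tested genes. Blood and immune markers summed to 194 to 255 in CKO and 1118 to 1986 in WT, mostly from C1qb. Of the 5 tested, limma called 1 lower in CKO and 0 higher, beside 0.991% and 0.52% of all genes. At GV, the 4 listed theca, stroma and endothelium markers summed to 127 to 372 in CKO and 963 to 2032 in WT. All 4 were called lower in the authors' deposited table, which called 7.89% of an implied 21462 tested genes lower. The 1 listed cumulus marker was at 8186 to 10162 in CKO and 3262 to 5713 in WT, and the 2 listed blood markers summed to 1026 to 1129 in CKO and 1825 to 2162 in WT. The part of these markers in the results below was not tested. The reads at MII came to 23077585 to 40530314 per CKO library and 88494525 to 124872889 per WT library. WT replicate 3 stood apart at MII: its Spearman correlations, taken over genes, were 0.847 to 0.877, against 0.899 to 0.940 between any pair of the remaining 5 libraries.

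In immature oocytes, the genes for 2 calcium entry channels were lower and a gene for a calcineurin catalytic subunit was higher without Lsm14b. All 3 listed members differed by over 2-fold with no overlap between the genotypes, and all 3 had an adjusted p under 0.05 in the authors' deposited table. That table called 12.9% of an implied 21462 tested genes at this stage. These calls were 2758 of the 3475 listed genes, so most listed genes were called. Of the 11 listed genes of the pathway list below, 10 also did not overlap. Since listing required over 2-fold, the size of the differences follows from the selection. The calls and the lack of overlap follow from it in part. The values are read counts divided by the authors' size factor of each library. In pools of whole oocytes, fewer oocytes with a transcript and less of it in each cannot be told apart.

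Orai1 encodes the pore of the store-operated calcium channel. At GV it had 483, 444 and 586 normalized counts in CKO replicates 1, 2 and 4 and 1178, 1265 and 1256 in WT replicates 1, 2 and 4. Every CKO library lay below every WT library, and the CKO mean was 40.9% of the WT mean. The authors' deposited table gave a log2 fold change of -1.29 (SE 0.22, adjusted p = 1.08e-07).

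Trpv3 encodes a cation channel of the vanilloid family that passes calcium and strontium into mouse eggs. At GV it had 4527, 3109.9 and 4095 normalized counts in CKO and 11288, 7036 and 11336 in WT. The lowest WT library, replicate 2, was still above the highest CKO library, and the CKO mean was 39.6% of the WT mean. The authors' deposited table gave a log2 fold change of -1.34 (SE 0.23, adjusted p = 1.62e-07).

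Ppp3ca encodes a catalytic subunit of calcineurin, the phosphatase switched on by calcium and calmodulin. At GV it had 772, 925 and 562 normalized counts in CKO and 336, 344 and 309 in WT. All CKO libraries were above all WT libraries, and the CKO mean was 228% of the WT mean. The authors' deposited table gave a log2 fold change of 1.19 (SE 0.30, adjusted p = 0.000664).

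**Figure D1:**
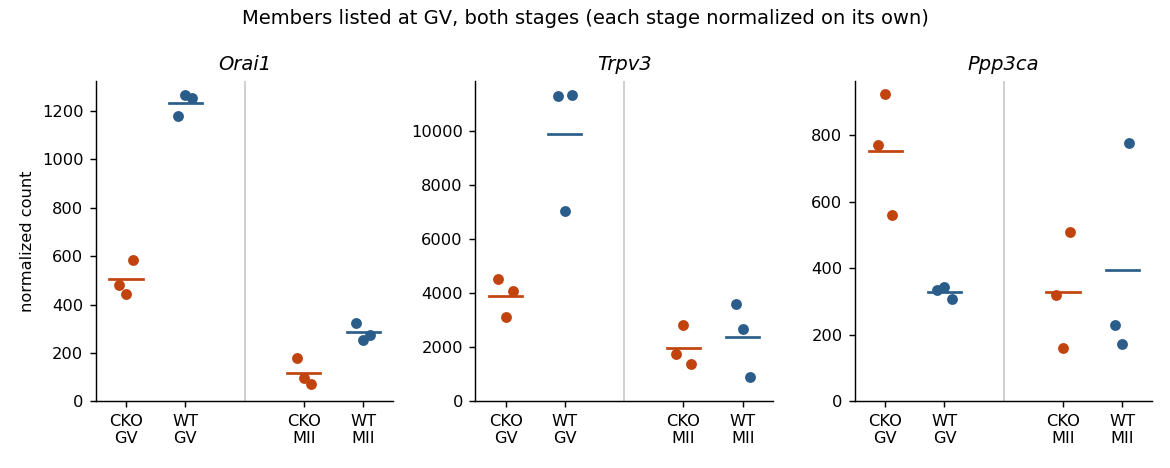
Normalized counts (vertical axes, from 0) of Orai1, Trpv3 and Ppp3ca in each library of CKO (orange) and WT (blue) at GV and MII, with lines at the means of 3 libraries. The genotypes do not overlap for any of the 3 at GV, and at MII they do not overlap for Orai1 alone; levels should not be compared across the grey line, since each stage was normalized on its own.

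The same 3 genes were measured again in separate MII libraries, where Orai1 again did not overlap between the genotypes but did not pass the threshold. Orai1 had 180.4, 96.2 and 70.2 normalized counts in CKO replicates 2, 3 and 4 and 326, 254 and 275 in WT replicates 1, 2 and 3. The CKO libraries, with 131, 38 and 51 reads, all lay below the WT libraries, with 553, 424 and 537 reads, and the CKO mean was 40.6% of the WT mean. The limma log2 difference was -1.40 (SE 0.61, 95% interval -2.77 to -0.02), with an unadjusted p of 0.0468 and an adjusted p of 0.304 by limma over all genes. The authors' deposited table gave -1.30 (SE 0.54, adjusted p = 0.104) at MII.

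Trpv3 did not keep a separation of the genotypes at MII. It had 1746, 2836 and 1401 normalized counts in CKO and 3609, 2675 and 918 in WT, where the lowest library of all was WT replicate 3. The limma log2 difference was -0.12 (SE 0.51, 95% interval -1.26 to 1.03, adjusted p = 0.919). Without WT replicate 3 it was -0.70, with an adjusted p of 0.373 by limma, and over all settings tried the adjusted p ranged from 0.303 to 1.

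Ppp3ca had 321, 159.5 and 509.6 normalized counts in CKO and 230.4, 173 and 778 in WT at MII, where WT replicate 3 was the highest of the 6 libraries. The limma log2 difference was -0.08 (SE 0.69, 95% interval -1.63 to 1.47, adjusted p = 0.959), and it was 0.57 without WT replicate 3. Among the 3 catalytic subunit genes Ppp3ca took 25.2% ± 9.73 of the reads in CKO and 35.2% ± 13.9 in WT (SD, n = 3 each). Whether the genotype difference of Orai1, Trpv3 or Ppp3ca changed between the stages was not tested, because the GV values were selected for a difference.

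In mature eggs, none of the 10 members passed the threshold of an adjusted p under 0.05 by limma, which called 1.51% of 20388 genes (0.52% higher and 0.991% lower in CKO). At an unadjusted p under 0.05 limma marked 3 of the 10, against 16% of all genes. These were Camk2g and Orai1, lower in CKO, and Calm2, higher in CKO. The same 3 members were those whose genotypes did not overlap, against 22.4% of all tested genes (10.4% higher and 12% lower in CKO). Limma-voom on recovered reads called 0 members, and the authors' deposited table called 2, Camk2g and Calm2, against 11.5% of 16042 genes with an adjusted p (4.6% higher and 6.94% lower in CKO). The median log2 difference of the 10 was -0.07, beside -0.11 over all genes tested.

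**Figure D2:**
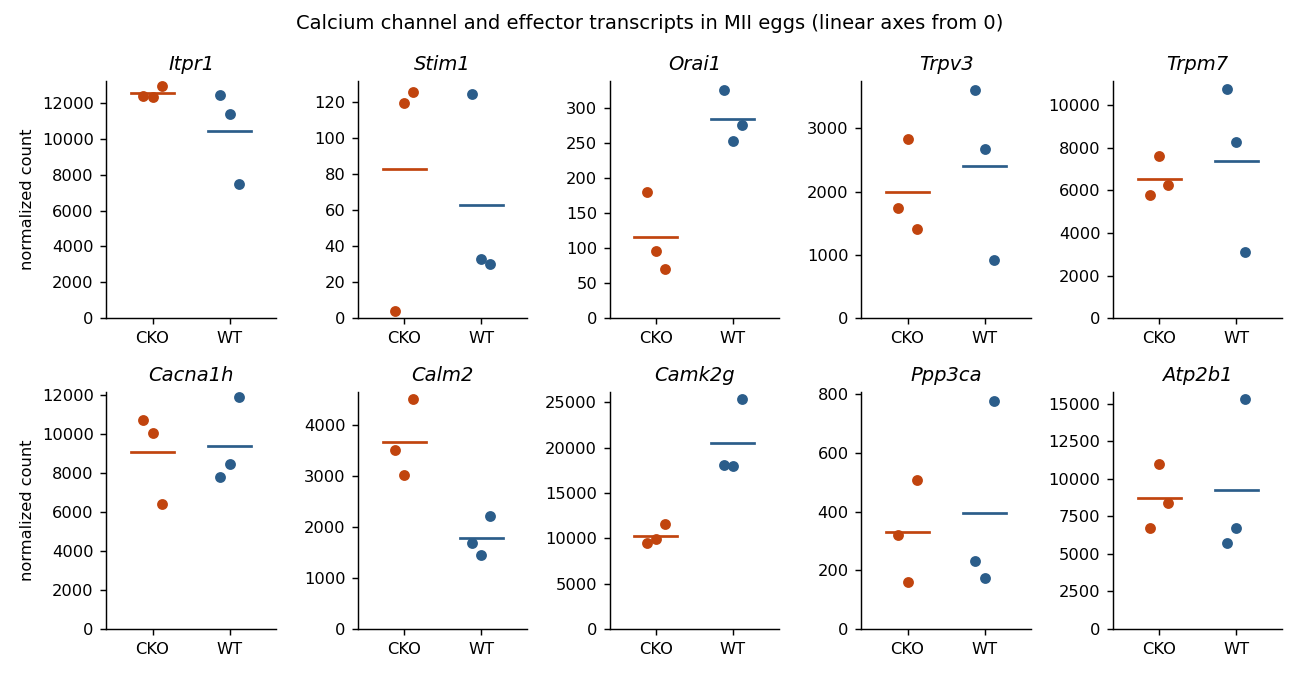
Normalized counts (vertical axes, linear from 0, a scale for each gene) of the 10 genes in the 3 CKO (orange) and 3 WT (blue) MII libraries, with lines at the means. The genotypes do not overlap for Orai1, Calm2 and Camk2g, and for most other genes the spread within WT is as wide as the CKO values.

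Camk2g encodes the gamma isoform of CaMKII, the kinase that mouse eggs need to leave metaphase arrest. It had 9445, 9919.9 and 11536 normalized counts in CKO and 18141, 17933 and 25378 in WT. Every CKO library was well below every WT library, and the CKO mean was 50.3% of the WT mean. Limma gave a log2 difference of -0.98 (SE 0.27, 95% interval -1.59 to -0.37), with an unadjusted p of 0.00519 and an adjusted p of 0.113 by limma. The authors' deposited table gave -0.99 (SE 0.28) with an adjusted p of 0.00606, so the call rests on the test used. Over all settings the log2 difference stayed between -1.14 and -0.81, and limma's adjusted p ranged from 0.0118 with array weights to 0.587 with a replicate block.

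Almost all CaMKII reads in these eggs came from Camk2g. It took 99.7% ± 0.195 of the family's reads in CKO and 99.6% ± 0.378 in WT (SD, n = 3 each), among Camk2a, Camk2d and Camk2g. Camk2b had no row in the MII table. The relatives were scarce in both genotypes. Camk2d averaged 30.5 ± 17.1 normalized counts in CKO and 52.0 ± 47.5 in WT (SD, n = 3 each), and Camk2a was at 0 in every CKO library.

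Calm2, which encodes calmodulin, was the member with the higher CKO values. It had 3498, 3023 and 4497 normalized counts in CKO and 1674, 1457 and 2216 in WT. All CKO libraries were above all WT libraries, and the CKO mean was 206% of the WT mean. By limma the log2 difference was 1.05 (SE 0.31, 95% interval 0.35 to 1.74), with an unadjusted p of 0.0077 and an adjusted p of 0.133 by limma. The authors' deposited table gave 1.04 (SE 0.32) with an adjusted p of 0.0162. Over all settings the log2 difference lay between 0.86 and 1.24, and limma's adjusted p between 0.00465 with array weights and 0.587 with a replicate block.

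Calm3 did not separate the genotypes. It had 563, 524 and 642 normalized counts in CKO and 499, 453 and 931 in WT, where WT replicate 3 was the highest, and its limma log2 difference was -0.05.

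Reads of other members were also set against their families, as the share of the family's reads that a member took, in 8 families. Such a share does not depend on how libraries are scaled. An exact two-sided permutation test of 3 against 3 libraries cannot give a p below 0.1. Only Trpm7, of the 8 members examined, had shares that did not overlap between the genotypes.

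**Figure D3:**
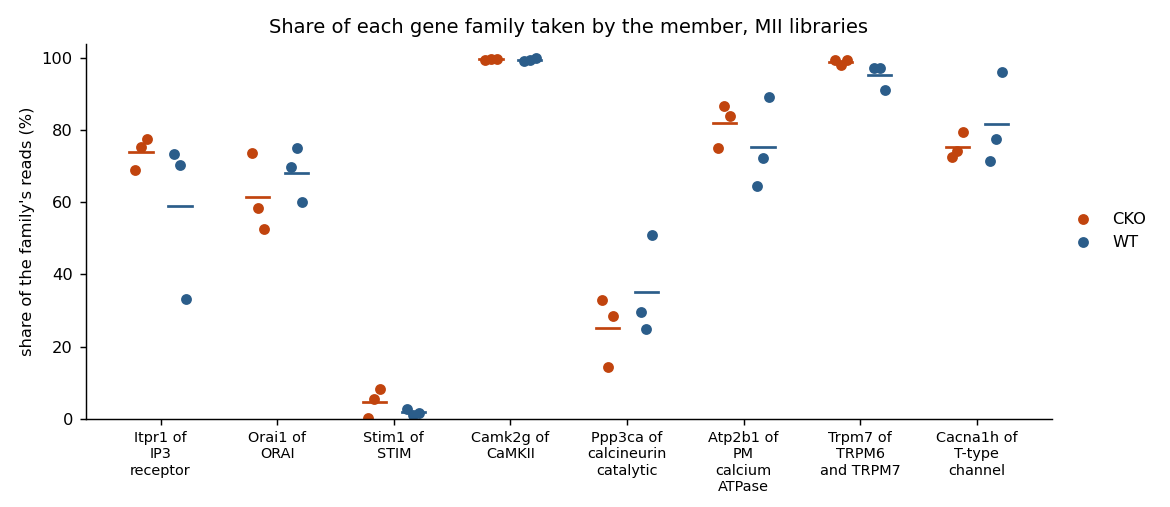
Share of each gene family's reads (vertical axis, percent) taken by the member named below, in each CKO (orange) and WT (blue) MII library, with lines at the means. Trpm7 takes a larger share in every CKO library than in any WT library, and Camk2g takes over 99% in all 6.

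For the release channel, the genotypes overlapped and limma called no difference. Itpr1, the receptor for inositol trisphosphate, had 12386, 12345 and 12956 normalized counts in CKO and 12433, 11416 and 7513 in WT. The WT libraries reached from below the CKO values to within them. Its log2 difference by limma was 0.30 (SE 0.28, 95% interval -0.34 to 0.93, adjusted p = 0.628), and it was 0.08 without WT replicate 3. Itpr1 took 74.0% ± 4.43 of the reads of the 3 receptor genes in CKO and 59.0% ± 22.4 in WT (SD, n = 3 each), where WT replicate 3 was at 33.2% and had 14942 normalized counts of Itpr2.

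Stim1, the calcium sensor of the endoplasmic reticulum that gates ORAI1, was the scarcest of the 10. It had 4.13, 119 and 125 normalized counts in CKO and 124, 32.9 and 30.3 in WT, resting on as few as 3 reads in CKO replicate 2. The limma log2 difference was -0.26 with a 95% interval of -3.37 to 2.85 (adjusted p = 0.935), so the interval covers large differences in either direction. On the linear scale the CKO mean was the higher, at 82.8 ± 68.2 in CKO and 62.5 ± 53.6 in WT (SD, n = 3 each), and the authors' deposited table gave a log2 fold change of 0.40 (SE 1.22, adjusted p = 0.904), so the data give no direction. Without CKO replicate 2 it was 1.27. Its relative Stim2 held nearly all STIM reads, and Stim1 took 4.65% ± 4.02 in CKO and 1.78% ± 0.908 in WT (SD, n = 3 each). Stim2 averaged 1635 ± 367 normalized counts in CKO and 3216 ± 1308 in WT (SD, n = 3 each), with a limma log2 difference of -0.91 (SE 0.39, adjusted p = 0.29).

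Trpm7, a channel fused to a kinase that admits calcium and magnesium, had 5763, 7621 and 6234 normalized counts in CKO and 10746, 8253 and 3087 in WT. The CKO values lay inside the WT range, and the limma log2 difference was 0.00 (SE 0.44, 95% interval -0.98 to 0.98, adjusted p = 1). Without WT replicate 3 it was -0.54. Trpm7 nonetheless took 99.0% ± 0.745 of the reads of Trpm6 and Trpm7 together in CKO and 95.3% ± 3.59 in WT (SD, n = 3 each), with no overlap (exact permutation p = 0.1, two-sided, 0.667 after Benjamini-Hochberg adjustment over 8 families). The other gene of the pair, Trpm6, had 30.3, 142 and 34.4 normalized counts in CKO and 295, 226 and 301 in WT, with a limma log2 difference of -2.33 (SE 0.79, adjusted p = 0.181). At GV, where Trpm6 averaged 152 ± 64.5 in CKO and 729 ± 139 in WT (SD, n = 3 each), it was lower in the authors' deposited table (log2 -2.26, adjusted p = 6.16e-07).

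Cacna1h, the pore subunit of the T-type channel known in mouse eggs, had 10714, 10064 and 6419 normalized counts in CKO and 7789, 8454 and 11883 in WT. The lowest CKO library and the highest WT library set the ends of the range. Limma put the log2 difference at -0.06 (SE 0.31, 95% interval -0.76 to 0.64, adjusted p = 0.933), and it was 0.17 without CKO replicate 4. Atp2b1, a plasma membrane calcium pump, had 6698, 11031 and 8419 in CKO and 5733, 6757 and 15337 in WT, where WT replicate 3 was again the highest. Its limma log2 difference was 0.02 (SE 0.40, 95% interval -0.87 to 0.91, adjusted p = 0.981), and it was 0.46 without WT replicate 3.

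**Figure D4:**
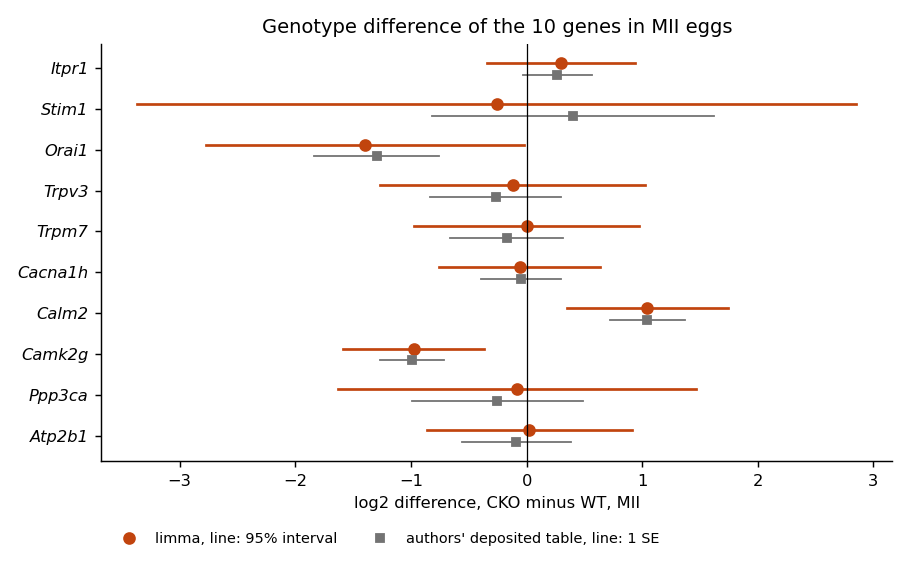
Log2 difference, CKO minus WT, of the 10 genes at MII (horizontal axis), from limma (orange circles, lines are 95% intervals) and from the authors' deposited table (grey squares, lines are 1 standard error). The limma intervals of Orai1, Calm2 and Camk2g do not reach 0, and that of Stim1 runs from -3.37 to 2.85.

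The 10 genes differed widely in level. Per kilobase of annotated exon, Calm2 averaged 3048 ± 624 normalized counts and Camk2g 2698 ± 287 in CKO eggs (SD, n = 3 each), and their ranges overlapped. Itpr1, Atp2b1, Cacna1h and Trpm7 followed at 1273 to 920.1 per kilobase in CKO, each overlapping the next. Trpv3, at 342 ± 128 (SD, n = 3), was separated from its neighbours on both sides, as was Stim1 at the bottom, at 18.6 ± 15.3 (SD, n = 3). Ppp3ca and Orai1 lay between them, at 68.9 ± 36.6 and 61.7 ± 30.7 per kilobase in CKO (SD, n = 3 each), and overlapped.

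In WT eggs the means of Calm2 and Camk2g stood the other way round, though in CKO their ranges overlapped. Camk2g averaged 5367 ± 1111 normalized counts per kilobase (SD, n = 3), above Calm2 at 1479 ± 325 (SD, n = 3) with no overlap. From Calm2 down to Ppp3ca every neighbour in the WT order overlapped the next, and Stim1 was last, at a mean of 14.1 per kilobase. Camk2g stood at the 94.6th percentile of 19876 genes in CKO and at the 97.5th in WT, and Calm2 at the 95.3rd percentile in CKO and the 89.9th in WT.

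One control library often lay at an end of the range. WT replicate 3 was the highest or the lowest of the 6 MII libraries for 7 of the 10 members, Itpr1, Trpv3, Trpm7, Cacna1h, Camk2g, Ppp3ca and Atp2b1. Over all 10568 genes averaging 100 normalized counts or more, this library was at an end of the range for 65.1%, against 19.1% to 31.3% for each of the other 5. With it left out, limma called 4.37% of genes and 0 members, and Camk2g and Calm2 had adjusted p of 0.0559 and 0.0607 by limma, with log2 differences of -0.81 and 1.21.

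**Figure D5:**
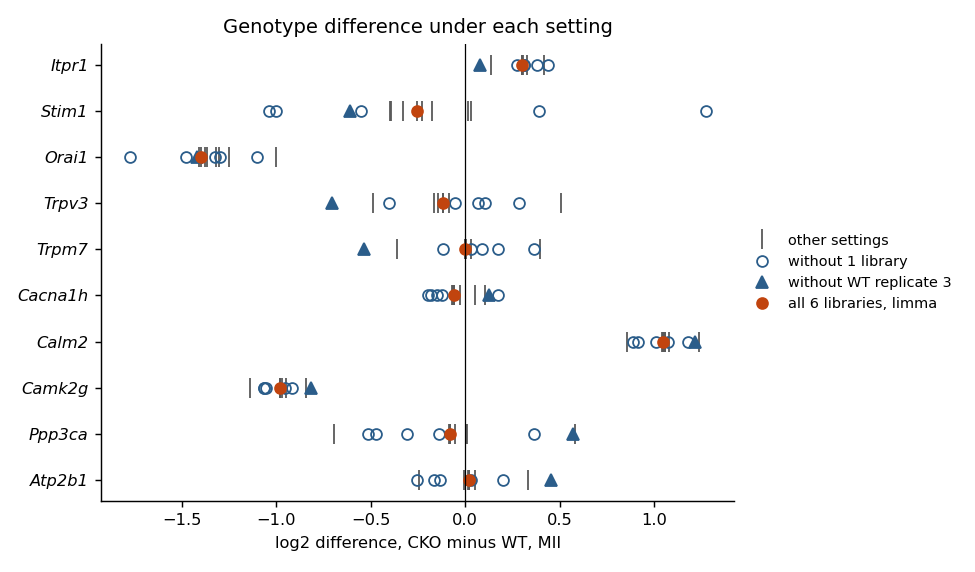
Log2 difference at MII, CKO minus WT (horizontal axis), of the 10 genes with all 6 libraries (orange), without WT replicate 3 (blue triangles), without each other library (open circles) and under the other settings (bars). Orai1, Calm2, Camk2g and Itpr1 keep their sign throughout, and the other 6 genes fall on both sides of 0. For Orai1, Calm2 and Camk2g, whose genotypes do not overlap, leaving out a library cannot change the sign.

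The remaining genes of the calcium pathway were taken from a list of 90 grouped by role, of which 81 could be tested at MII. Limma called 1 higher, 1 lower and 79 not past the threshold, where it called 0.52% of all genes higher and 0.991% lower. The median log2 difference of the 81 was -0.24, beside -0.11 over all genes. Among 10 store release genes and 20 plasma membrane entry genes tested, limma called none, with 1 and 3 at an unadjusted p under 0.05, against 16% of all genes. Gnaq, a G protein subunit that activates phospholipase C beta, had the smallest p of the first group, at 849 ± 216 normalized counts in CKO and 1675 ± 48.0 in WT (SD, n = 3 each; limma log2 difference -1.01, adjusted p = 0.174). Cacna1c, the L-type channel pore, had the smallest p of the second group, at 0 in every CKO library and 80.7, 8.38 and 541 in WT (limma adjusted p = 0.0947). Limma-voom on recovered reads called 0 genes of either group, and the authors' deposited table called 1 in each, Gnaq and Cacna1c, both lower, where it called 6.94% of all genes lower.

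Of 23 pumps, exchangers and store proteins, 1 rose and 22 were not past the threshold, beside 0.52% of all genes called higher. At an unadjusted p under 0.05 limma marked 3 higher and 2 lower, against 16% of all genes. With no overlap 6 were higher and 3 lower, against 10.4% and 12% of all genes. The authors' deposited table called Hspa5 higher and Vdac2 lower, where it called 4.6% and 6.94% of all genes. Vdac2 averaged 360 ± 119 in CKO and 942 ± 81.7 in WT (SD, n = 3 each; limma adjusted p = 0.125). Hspa5, the major chaperone of the endoplasmic reticulum and a calcium buffer there, had 9106, 7563 and 11931 normalized counts in CKO and 2158, 1914 and 4541 in WT (limma log2 difference 1.82, SE 0.38, adjusted p = 0.0493). The genotypes did not overlap. Of 28 genes of calmodulin signalling, 1 fell and 27 were not past the threshold, beside 0.991% of all genes called lower. At an unadjusted p under 0.05 limma marked 1 higher and 5 lower, against 16% of all genes. With no overlap 4 were higher and 6 lower, against 10.4% and 12% of all genes. The authors' deposited table called Camk4 higher and Rcan2, Fbxo43 and Nfatc2 lower, where it called 4.6% and 6.94% of all genes. Rcan2, a calcineurin regulator, was at 0 in every CKO library and at 114, 42.5 and 134 in WT, at least 59.5-fold lower when 3 counts over the CKO group are taken as the floor (limma adjusted p = 0.0392). Leaving out any library other than WT replicate 3 left limma with 0 calls over all genes, these 2 included (adjusted p of 0.232 to 0.28 for Hspa5 and 0.0636 to 0.167 for Rcan2). At an unadjusted p under 0.05 these fits still marked 971 to 1278 genes higher and 1409 to 1729 lower. The log2 difference of Hspa5 lay between 1.58 and 2.20 with each of the 6 libraries left out. Camk4, a nuclear calmodulin-dependent kinase, averaged 835 ± 179 in CKO and 228 ± 22.2 in WT (SD, n = 3 each), with a limma log2 difference of 1.85 (SE 0.42, adjusted p = 0.0639). The authors' deposited table gave it 1.87 (adjusted p = 2.39e-06). Fbxo43 averaged 2562 ± 613 in CKO and 9582 ± 6374 in WT, with no overlap (SD, n = 3 each). Its adjusted p was 0.0883 by limma and 0.00457 in the authors' deposited table.

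At GV, 11 of the 90 list genes were called in the authors' deposited table, 3 higher and 8 lower, where 4.96% and 7.89% of implied tested genes were. Hspa5 was higher, at 39366, 41876 and 43063 normalized counts in CKO and 11765, 14781 and 13668 in WT (log2 1.63, adjusted p = 4.43e-35 in the authors' deposited table). Camk4 was higher, at 636, 1091 and 1165 in CKO and 440.2, 517 and 252 in WT. Slc8a1, a sodium-calcium exchanger, was at 111, 17.8 and 33.4 in CKO and at 0 in every WT library, at least 48.4-fold higher with 3 counts over the WT group as the floor. At MII it had reads in 1 library alone, CKO replicate 3, at 40.5 normalized counts, and was at 0 in every WT library.

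The 8 lower genes at GV were of several roles. Gnaq averaged 1149 ± 221 normalized counts in CKO and 3754 ± 752 in WT, and Vdac2, an outer mitochondrial membrane channel, 3278 ± 236 in CKO and 9409 ± 1919 in WT (SD, n = 3 each). Nfatc3, a transcription factor that calcineurin dephosphorylates, averaged 135 ± 36.3 in CKO and 813 ± 197 in WT (SD, n = 3 each). Its relative Nfatc1 was also lower, as were the entry channel genes Trpm6, Trpc1 and Cacna1g, the last with overlapping libraries. Prkcb, a calcium-dependent protein kinase C, was at 0 in every CKO library and at 88.0, 124 and 42.2 in WT.

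By a rule of likeness over the 6 MII libraries, the genes closest to Camk2g, the member with the smallest limma p, were Slc30a1, Tgds and Mettl14. Their Pearson correlations of log2 levels with Camk2g were 0.9992, 0.9991 and 0.9971 among 10568 genes searched. All 3 were lower in each CKO library than in any WT library and highest in WT replicate 3, as was Camk2g, so the likeness rests on 6 points that share the genotype contrast and that library.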

How the data were processed

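The 10 members and the gene lists were chosen with earlier results of these data known. Libraries were made from total RNA by standard Illumina methods, per the labels' protocols. Aligner, genome build, counting tool and strand setting: all not given in the sources used here, so overlapping, antisense and near-identical genes are uncertain. The authors deposited each library's level as log10 of the normalized count plus 1. Per the file headers, both tables also held a mean signal per gene, log2 fold change, standard error, a score (fold change over standard error), p-value and adjusted p-value. Whole reads were recovered from the value steps (100% within 0.05 of a whole number).

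MII levels, as log2(normalized count + 1), were compared by genotype with limma 3.58.1 (R 4.3.3, mean-variance trend) over 20388 genes whose mean was 1 or more, with Benjamini-Hochberg adjustment. Fold changes on this scale understate low genes. The procedure was also run on simulated counts, with a single spread setting for all genes, no outlying library and no effects in scarce genes. That run cannot show how limma handles WT replicate 3 or scarce genes such as Stim1. No model was fitted to the selected GV genes, so their tests are the authors'. Shares were compared by exact permutation tests (scipy 1.17.1). Named genes were all members, called list genes, the smallest p per role, and the genes most like the member with the smallest p. A change in total RNA per oocyte would not appear in these values. Alternatives were pseudocounts of 0.1 and 10, no filter, library-size scaling, array weights, a replicate block, limma-voom, thinned reads and leaving out each library. One gene's values are not reported here.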

Additional observations from a re-analysis of the deposited data

How the results depend on the processing

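At GV the genotypes of Orai1, Trpv3 and Ppp3ca did not overlap, so no pseudocount and no left-out library could change their direction or separation. Those settings therefore test neither. They show only the size, with log2 differences of -1.41 to -1.21, -1.55 to -1.17 and 0.997 to 1.36 when 1 library was left out. At MII, Orai1, Calm2, Camk2g and Itpr1 kept their sign under every setting. For Orai1, Calm2 and Camk2g, whose genotypes did not overlap, a left-out library or another pseudocount could not have changed it. Limma called 308 genes, against 3190 with array weights, 171 with limma-voom, 0 to 890 when 1 library was left out (890 without WT replicate 3, 0 otherwise) and 1851 in the authors' deposited table. Members called numbered 0, against 2 (Camk2g and Calm2) with array weights and 2 in the authors' deposited table. List genes called numbered 2, against 0 with a pseudocount of 0.1, 0 with no filter, 14 with array weights, 1 with limma-voom, 1 with thinned reads, 0 to 5 with 1 library left out and 8 in the authors' deposited table. Families whose shares did not overlap numbered 1, and 1 to 4 with 1 library left out (4 without CKO replicate 2, 2 without WT replicate 3). Leaving out a library cannot undo a lack of overlap, so this count could not fall below 1.

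With a replicate block limma called 0 genes and 0 list genes (528 higher and 968 lower at an unadjusted p under 0.05), and Trpv3, Cacna1h and Atp2b1 turned to 0.505, 0.051 and -0.24. At MII only replicate numbers 2 and 3 occurred in both genotypes, so the genotype term rested on these libraries alone. The blocked fit therefore had little power, and its 0 calls cannot decide whether the differences hold. Same-numbered libraries did not deviate together (correlations of 0.013 and -0.10 at MII and -0.012, 0.016 and 0.001 at GV), so the numbers were not taken as pairs. At GV, where every number occurred in both genotypes, the block averaged same-numbered differences, which always equals the difference of the group means. It therefore left the 3 members as they were and tests nothing there.

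The other 6 members near 0 changed sign at MII. The differences were 0.0295 for Stim1 and -0.00028 for Trpm7 with a pseudocount of 10, and -0.36 for Trpm7, 0.10 for Cacna1h and 0.58 for Ppp3ca with array weights. They were -0.000102 for Trpm7, 0.0075 for Ppp3ca and -0.0067 for Atp2b1 with limma-voom, and 0.014 for Stim1 and 0.0013 for Ppp3ca with thinned reads. With 1 library left out the ranges were -1.04 to 1.27 for Stim1, -0.70 to 0.28 for Trpv3, -0.54 to 0.36 for Trpm7, -0.20 to 0.17 for Cacna1h, -0.51 to 0.57 for Ppp3ca and -0.25 to 0.46 for Atp2b1. The cause was not tested. Thinning and the authors' adjusted p were added after seeing the data. Every CKO library at MII was shallower than every WT library, and Stim1 in particular was at the limit of depth.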
